A study of Capitella teleta with 10 samples.

Results

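The transcripts described here were most abundant in the gastrula of *Capitella teleta*, a marine segmented worm with a larva that lives on yolk. They are 150 of the 41221 transcript models in the deposited values. The members were chosen from those values. Both gastrula libraries had to hold at least 100 normalized read counts, which left 14325 models. Each was then scored as the log2 ratio of its lower gastrula library to the highest of the 8 libraries of other stages, after adding 1 to both. A score above 0 was found for 3392 models, and the 150 largest scores were taken. The gastrula peak is therefore how the set was chosen and not a result, and the gastrula against any other stage was not tested. Levels among the other stages were limited by the score only from above, and those were compared.

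RNA was sequenced from whole *C. teleta* at 5 stages with 2 libraries per stage, namely the 64-cell embryo, gastrula, stage 4tt, stage 5 and stage 7. Stage 4tt is an embryo in the labels but a larva in the study's methods, and stages 5 and 7 are larvae in both. The labels name neither strain nor treatment. The samples belong to a study of when trunk formation starts in annelids with different life cycles. Library totals lay between 32883200 and 55846793 normalized counts and reflect the scaling too. The lowest nonzero value lay between 0.422 and 0.808 in the 10 libraries, near the worth of a single read. Duplicates were collected at each stage, and the study calls them biological replicates. The study's methods describe a shared fertilization for libraries of 1 replicate in another annelid, *Owenia fusiformis*. It is unclear whether equal replicate numbers share a brood in *C. teleta*. With 2 libraries per stage, p-values measure only the spread between these samples. The identifiers carry no gene name for any of the 150, and markers of tissues or cell types could not be checked.

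As background, gastrulation is when the germ layers are set in place and cells move inside the embryo. In *C. teleta* it proceeds mainly by epiboly, the spreading of small surface cells over large yolky ones. Before it, animal embryos pass from RNA stored in the egg to RNA made by their own genome. Genes that are switched on for a short time around gastrulation, and then silenced, are known from many animals. Transcripts of this kind stay low in the egg and cleavage stages and are lost again as organs form. In RNA from whole animals, fewer cells that express a gene and less RNA in each such cell cannot be told apart.

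Of all normalized counts in 64-cell embryos, the 150 transcripts together held 0.0931% ± 0.0158 (SD, n = 2 here and for each stage below). Their share was 1.57% ± 0.0266 in the gastrula. Stage 4tt had 0.366% ± 0.0275, stage 5 larvae 0.180% ± 0.0309 and stage 7 larvae 0.176% ± 0.00788. Stage 4tt was thus above both later stages by more than the SDs, and between stages 5 and 7 the share changed by less than the SD of stage 5. Median levels were 46.0 and 54.6 normalized counts in the 64-cell libraries, 1302 and 1322 in the gastrula and 210.0 and 184 at stage 4tt. They were 106 and 95.6 at stage 5 and 59.5 and 76.9 at stage 7. The set spanned a wide range of abundance, with gastrula means between 107 and 67681. The 10 most abundant members made up 45.4% of the summed gastrula means.

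**Figure D1:**
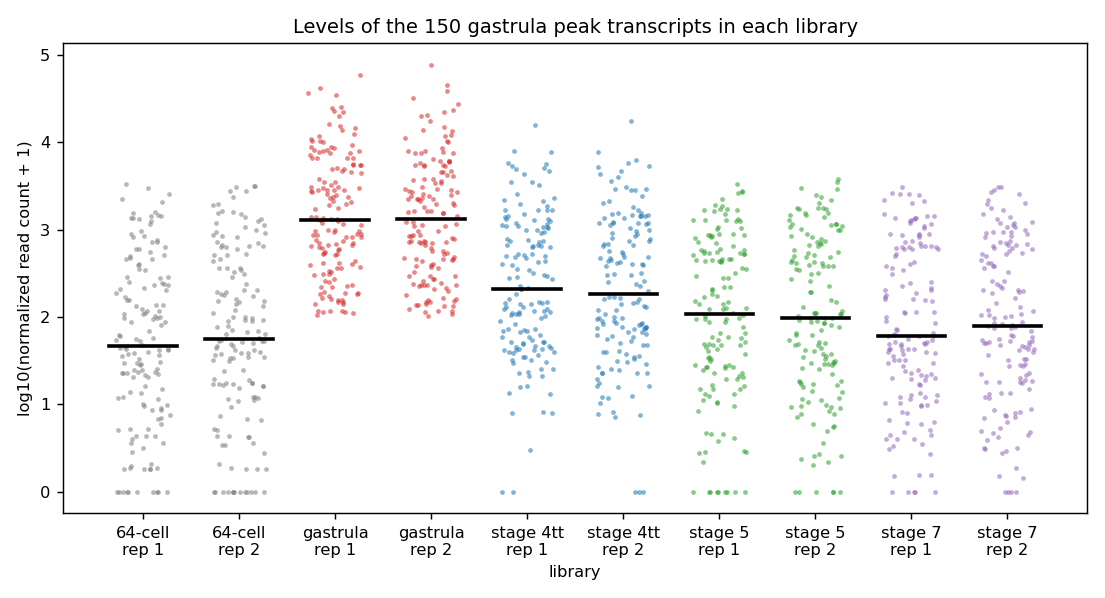
Normalized read counts of the 150 gastrula peak transcripts in each of the 10 libraries, on a log10(value + 1) axis, with 1 point per transcript and a black bar at the median. The gastrula medians of 1302 and 1322 follow from the choice of members, and the stage 4tt medians of 210.0 and 184 lie above those of the other 3 stages.

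The lower gastrula library exceeded the highest other library by a median of 3.42-fold, from 2.65-fold to 129-fold with 1 added to both values. The last member, CTELG00000012624.1, stood at 2.648-fold and the first model left out, CTELG00000025757.2, at 2.645-fold. The border of the set is therefore not a gap. A score above 2 was reached by 49 members and a score above 3 by 17. Taking gastrula replicate 1 alone for the score returned 118 of the 150 members, and replicate 2 alone returned 124. Scaling the libraries again by median ratios returned 135.

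The largest scores belonged to transcripts that were nearly absent outside the gastrula. CTELG00000019714.1 had 415 and 238 normalized counts in the gastrula libraries. It was listed at 0 in all libraries of stages 4tt and 5, and had 0.844 and 0 in 64-cell embryos, and 0 and 0.441 in stage 7 larvae. CTELG00000004899.1 had 157 and 134 in the gastrula, 0.504 and 0.872 at stage 7 and 0 in the other 6 libraries. Outside the gastrula neither transcript thus exceeded the worth of about 1 or 2 reads in any library. CTELG00000004070.1 had 1266 and 873 in the gastrula and then 20.1 and 24.1 at stage 4tt, so a trace remained there.

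Next by score, CTELG00000013425.1 was at 8.96 and 10.8 in 64-cell embryos, 993 and 1100.2 in the gastrula and 43.3 and 11.6 at stage 4tt. CTELG00000013585.1 had 19.6 and 15.9 at the 64-cell stage, 1315 and 704 in the gastrula, and between 5.64 and 31.4 later. Both were detected in each 64-cell library.

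The 3 most abundant members stayed abundant after the gastrula. CTELG00000015236.1 had 201 and 358 at the 64-cell stage, 58528 and 76833 in the gastrula and 15678 and 17291 at stage 4tt. It had 2749.9 and 3789 at stage 5 and 2574 and 2839 at stage 7. CTELG00000002388.1 had 138 and 171 at the 64-cell stage, 41911 and 44631 in the gastrula, 5599 and 3583 at stage 4tt. Its larval values were 1679 and 1772 at stage 5 and 3095 and 3041 at stage 7. Of the 3, CTELG00000004168.1 had the highest level at the 64-cell stage. It had 2564 and 2365 there, 36115 and 38528 in the gastrula, 5313 and 5173 at stage 4tt, with 1256 and 926 left at stage 7.

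The course of each transcript on both sides of its peak was then described by the stage with the second-highest mean. This stage was the one right after the gastrula, stage 4tt, for 104 members (69.3%). It was the 64-cell stage for 25 (16.7%), stage 7 for 15 (10%) and stage 5 for 6 (4.00%). Among the other 3242 models with a score above 0, the shares were 49.4% for stage 4tt, 22.6% for the 64-cell stage, 16.5% for stage 7 and 11.4% for stage 5. Both replicate numbers, taken alone, gave the same second stage for 104 members, 80 of them with stage 4tt, 15 with the 64-cell stage, 8 with stage 7 and 1 with stage 5. The assignment to stage 5 in particular rested on means of replicates that disagreed.

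Relative to its own gastrula mean, the median member stood at 6.66% in 64-cell embryos, 19.7% in stage 4tt animals, 9.14% in stage 5 larvae and 6.98% in stage 7 larvae. At stage 4tt, 34 members kept at least 25% of the gastrula mean and 32 kept under 10%. By stage 7, 91 members were under 10% and 19 were under 1%. The 64-cell mean was under 1% of the gastrula mean for 36 members. Of these transcripts, 6 were listed at 0 in both 64-cell libraries, 2 in both stage 4tt libraries, 4 in both stage 5 libraries and 2 in both stage 7 libraries.

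**Figure D2:**
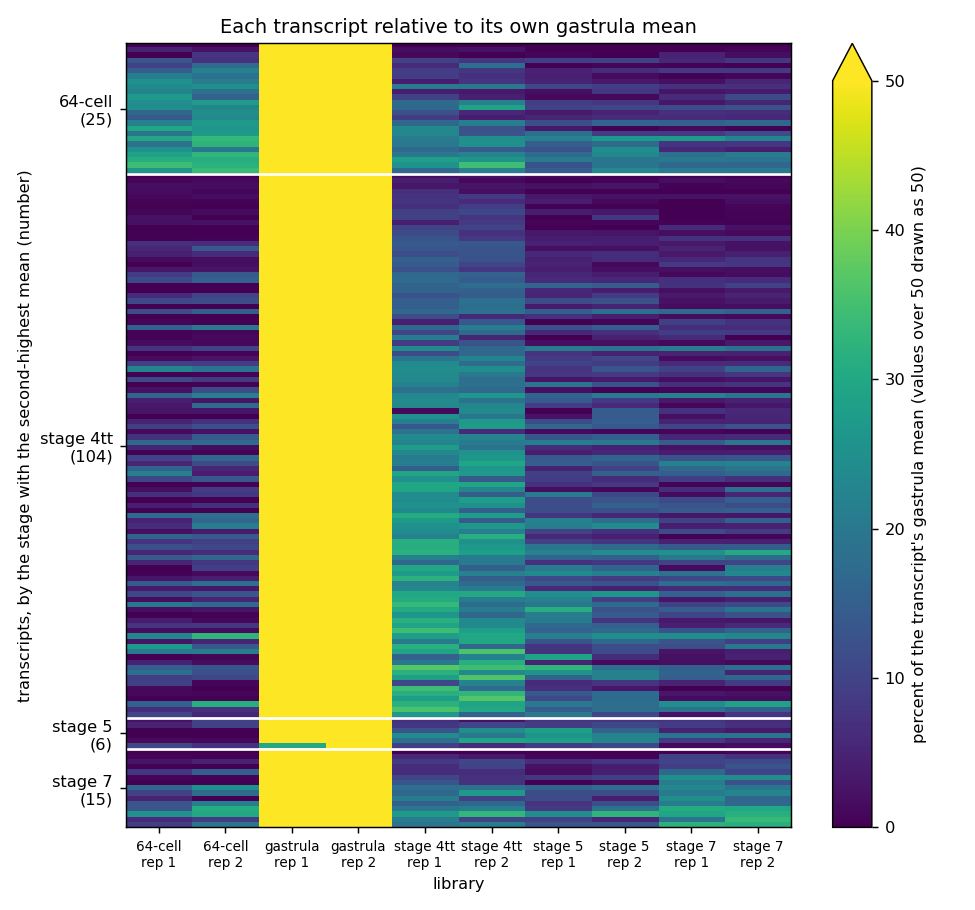
Each of the 150 transcripts (rows) in the 10 libraries (columns), as percent of its own gastrula mean, with values over 50% drawn as 50%; rows are grouped by the stage with the second-highest mean and keep the order of the score within a group. The 104 transcripts with stage 4tt second are faint at the 64-cell stage, with a median of 4.31% of the gastrula mean, while the 25 with the 64-cell stage second have 23.3% there.

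Within the group of 25 with the 64-cell stage second, the median member still had 15.8% of its gastrula mean at stage 4tt and 6.84% at stage 7. In the group of 15 with stage 7 second, the median was 15.2% in stage 4tt animals, 7.62% in stage 5 larvae and 20.7% in stage 7 larvae. These groups were formed from the same values and serve as a description only.

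To ask whether levels were higher after the gastrula than before it, stage 4tt was compared with the 64-cell stage. Limma was run across all 35526 models that passed a filter on low values. Presence at either stage is not tested by this comparison. All 10 libraries entered 1 fit of log2(value + 1). The gastrula libraries, whose values chose the members, thus also entered the estimate of the spread behind each p-value. Calls needed a log2 fold change above 1 or below -1 together with an adjusted p (Benjamini-Hochberg) under 0.05. All 150 members passed the filter, which their gastrula values alone would meet. In this comparison 72 members (48.0%) were higher at stage 4tt, against 23.8% of all models tested. Only 5 members (3.33%) were lower, against 20.7% of all models tested. Among the 14175 other models with both gastrula libraries at 100 or more, 32.2% were higher and 25.3% lower. The median log2 fold change of the members was 1.34, or 1.33 without the 7 members at 0 in both libraries of a stage. Over all models tested the median was 0.11. After scaling by median ratios these medians were 1.15 and 0.00. With only the 64-cell and stage 4tt libraries in the fit, 40.7% of members were higher, against 19.3% of all models tested. In that fit 1.33% of members were lower, against 17.8%.

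The largest rises belonged to transcripts with under 10 normalized counts in each 64-cell library. CTELG00000013023.1 had 346 and 386 normalized counts at stage 4tt, against 0.832 and 0 at the 64-cell stage. This is a log2 fold change of 8.08 (SE 0.35, limma adjusted p = 6.01e-07), which lay between 6.10 and 10.22 over the alternatives, since so low a reference moves with the value added before the logarithm. CTELG00000020245.1 had 1513 and 1458 at stage 4tt, against 5.84 and 5.72 at the 64-cell stage (log2 fold change 7.78, SE 0.29, adjusted p = 3.89e-07 by limma). CTELG00000000057.1 had 928 and 1222 at stage 4tt, against 1.84 and 8.43 at the 64-cell stage (log2 fold change 7.69, SE 0.50, adjusted p = 3.69e-06 by limma). These 3 were chosen among called members without overlap between the libraries.

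The 5 falls were smaller, from 64-cell means between 37.4 and 225 normalized counts. CTELG00000003090.1 had 37.3 and 75.4 normalized counts at stage 4tt, against 246 and 205 at the 64-cell stage. This log2 fold change of -2.06 (SE 0.48, limma adjusted p = 0.00626) remained called under all 17 alternatives. CTELG00000005983.1 had 6.96 and 6.18 at stage 4tt, against 40.6 and 34.2 at the 64-cell stage (log2 fold change -2.34, SE 0.68, adjusted p = 0.0186 by limma). Its call was lost when any 1 of these 4 libraries was left out, with an adjusted p of up to 0.0745 without 64-cell replicate 1. CTELG00000031431.1 had 50.03 and 21.9 at stage 4tt, against 79.6 and 134 at the 64-cell stage (log2 fold change -1.61, SE 0.50, adjusted p = 0.0244 by limma). The call of CTELG00000031431.1 was lost without 64-cell replicate 2, at an adjusted p of 0.135, without stage 4tt replicate 2, at 0.143, and with only these stages in the fit, at 0.124. The others, CTELG00000015580.1 and CTELG00000004546.1, are named only because the falls were few, after their values were seen. Their log2 fold changes were -1.05 and -1.27. The number of falls was 1 without 64-cell replicate 2, 1 without stage 4tt replicate 2 and 3 without stage 4tt replicate 1.

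**Figure D3:**
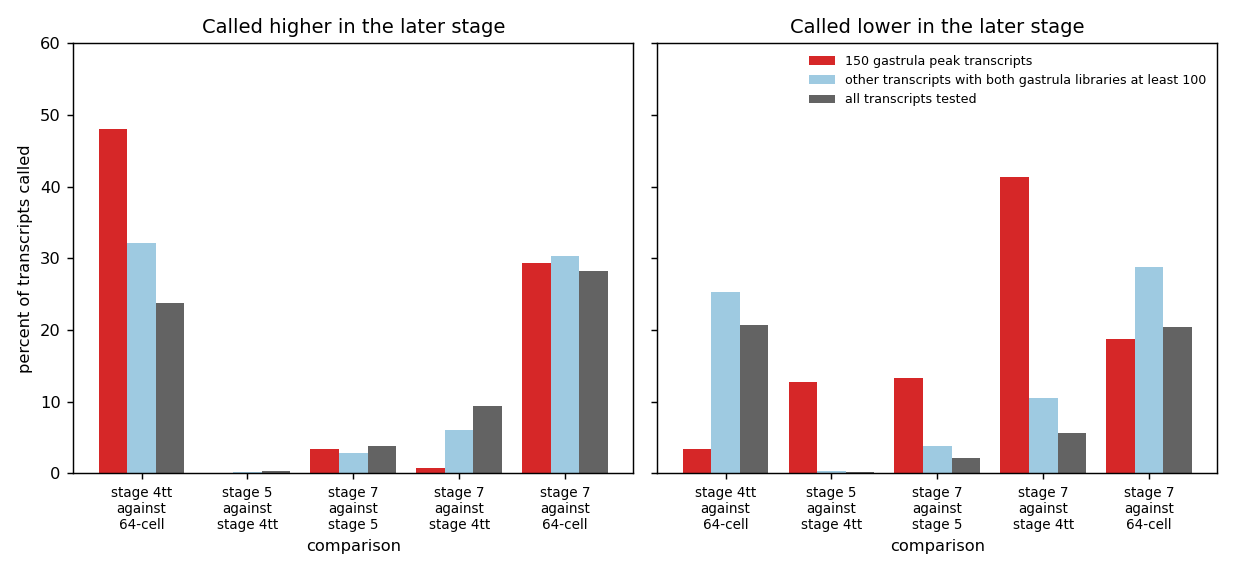
Percent of transcripts called higher (left) or lower (right) in the later stage of 5 comparisons that leave out the gastrula, for the 150 gastrula peak transcripts, for the other models with both gastrula libraries at least 100, and for all models tested. The members stand above both other sets in rises from the 64-cell stage to stage 4tt (48.0% of members) and in falls from stage 4tt to stage 7 (41.3%).

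The decline continued after stage 4tt. At stage 7 compared with stage 4tt, 62 members (41.3%) were lower, against 5.67% of all models tested, and 1 member (0.667%) was higher, against 9.32%. Of the other models with both gastrula libraries at 100 or more, 10.5% were lower and 6% higher. Means of normalized counts fell from stage 4tt to stage 5 and again to stage 7 in 53.3% of members. This share was nearly the same, 53.0%, among the other 3242 models with a score above 0. The stage 7 mean lay above the stage 4tt mean in 14.0% of members and in 24.9% of those models. The median log2 fold change was -1.14 for the members and 0.12 for all models tested. Fewer falls were called, among members and among all models tested, when 1 library of either stage was left out. The median log2 fold change of the members then lay between -1.26 and -1.04.

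CTELG00000014002.1 showed the largest fall in this comparison. It had 23.2 and 53.5 normalized counts at stage 7, against 1694 and 2435 at stage 4tt (log2 fold change -5.81, SE 0.35, adjusted p = 9.08e-05 by limma). It had also been present early, with 1258 and 1080.0 at the 64-cell stage and 7865 and 7594 in the gastrula, so it was higher at every earlier stage than at stage 7. CTELG00000033696.1 had 0 and 0 at stage 7, against 72.3 and 36.5 at stage 4tt (adjusted p = 0.00158 by limma). Since its stage 7 values are 0, no fold change is given.

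The only member called higher at stage 7 than at stage 4tt was CTELG00000000181.1. In all, 24 members had a log2 fold change above 0. It had 2591 and 2571 normalized counts at stage 7, against 1080.3 and 741 at stage 4tt (log2 fold change 1.53, SE 0.29, adjusted p = 0.00675 by limma). At stage 5 it had 840.3 and 995, in the range of stage 4tt, and in the gastrula 10393 and 10437. The 64-cell libraries had 95.1 and 51.5. Its rise missed the threshold without stage 7 replicate 1, at an adjusted p of 0.0501.

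**Figure D4:**
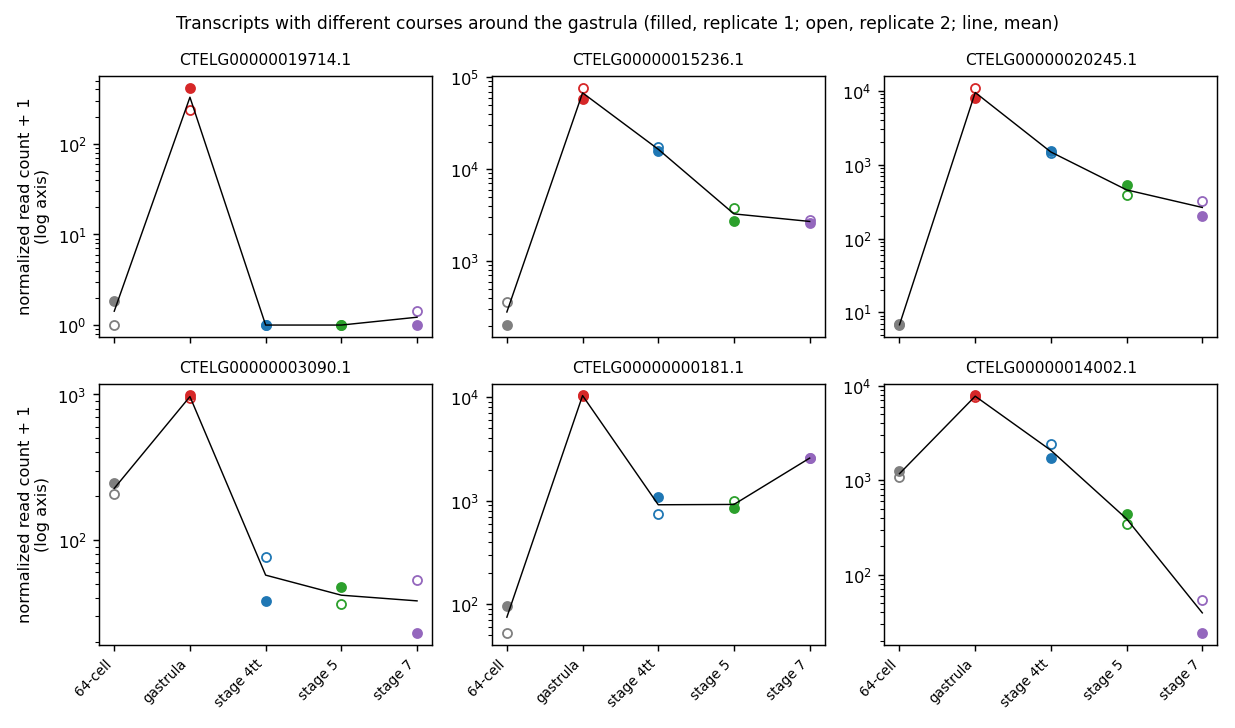
Normalized read counts plus 1 on a log axis at the 5 stages for 6 of the 150 transcripts, with filled points for replicate 1, open points for replicate 2 and a line through the means. CTELG00000019714.1 is near 0 outside the gastrula, CTELG00000015236.1 and CTELG00000020245.1 decline stepwise, CTELG00000003090.1 and CTELG00000014002.1 are already present in the 64-cell embryo, and CTELG00000000181.1 is higher again at stage 7.

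The steps to stage 5 and to stage 7 were compared singly. At stage 5 against stage 4tt, 19 members (12.7%) were lower, against 0.234% of all models tested. Limma called 0 members higher, against 0.327% of all models tested, also when only an unadjusted p under 0.05 and the same fold change were required. By that unadjusted rule 58 members were lower. The share of all models tested was not counted under this rule. Unadjusted counts here and below therefore only describe the members. The median log2 fold change was -0.997, and 135 members had one below 0. The calls themselves depended on single libraries, and so did the share of all models tested. No fall stayed called without stage 4tt replicate 1. Fewer were called without any 1 of the other stage 4tt, stage 5, gastrula or stage 7 libraries. The median log2 fold change of the members was -0.905 and -0.942 without stage 4tt replicate 1 and replicate 2. It was -0.891 and -0.980 without stage 5 replicate 1 and replicate 2. When the fit held just the stage 4tt and stage 5 libraries, limma called 0 members and 0% of all models tested, and 50 members were lower at an unadjusted p under 0.05.

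The 3 most abundant members were all among these falls. CTELG00000015236.1 had a log2 fold change of -2.35 at stage 5 against stage 4tt (SE 0.27, adjusted p = 0.0160 by limma). For CTELG00000002388.1 it was -1.38 (SE 0.21, adjusted p = 0.0313 by limma) and for CTELG00000004168.1 it was -1.69 (SE 0.16, adjusted p = 0.00698 by limma). The libraries of both stages did not overlap for any of the 3. With only these stages in the fit, limma called 0 members, so the calls of all 3 were lost.

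At stage 7 against stage 5, 20 members (13.3%) were lower, against 2.08% of all models tested, and 5 (3.33%) were higher, against 3.81%. The share of rises was thus close to that of all models. Fewer falls were called, among members and among all models tested, without any 1 library of these stages. The median log2 fold change of the members was -0.232 in the main fit. It was -0.148 and -0.299 without stage 7 replicate 1 and replicate 2. Without stage 5 replicate 1 and replicate 2 it was -0.176 and -0.134. The largest fall, chosen after its values were seen, was that of CTELG00000000741.1, with 114 and 202 normalized counts at stage 7, against 1858 and 2185 at stage 5. It had 44.6 and 68.6 at the 64-cell stage, 24970.1 and 27672 in the gastrula and 7795 and 7763 at stage 4tt. Its stage 7 libraries were thus both above its 64-cell libraries.

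The 5 rises to stage 7 are named because they were few, after their values were seen. CTELG00000009990.2 had 224 and 130.04 normalized counts at stage 7, against 0 and 12.8 at stage 5, and had 896 and 1214 in the gastrula. CTELG00000012540.1 had 2195 and 2158 at stage 7, against 873 and 897 at stage 5. CTELG00000000181.1, described above, was among them. CTELG00000034436.1 had 16.3 and 12.5 at stage 7, against 0 and 1.36 at stage 5. CTELG00000002300.1 had 8.81 and 3.75 at stage 7, against 0 and 0 at stage 5. Both of these are low values. None of these rises stayed called when either stage 7 library was left out, and fewer of all models tested were then called higher. The number of rises also changed when a library of another stage was left out.

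The ends of the series were compared last. At stage 7 against the 64-cell stage, 44 members (29.3%) were higher, against 28.2% of all models tested, and 28 (18.7%) were lower, against 20.4%. These shares are near those of all models. The median log2 fold change was 0.23 for the members and 0.38 for all models tested, and 0.02 and 0.20 after scaling by median ratios.

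Of the 150 members, 43 were called in none of the 5 comparisons and 1 in all of them. The calls of different comparisons share libraries, and the same counts were not made over all models tested. These counts therefore describe single transcripts and cannot be read as many or few. Across the 8 libraries outside the gastrula, the highest value exceeded the lowest by a median of 8.99-fold, with 1 added. The most even member, found after the values were seen, was CTELG00000026473.1. Its 64-cell libraries had 601 and 719 normalized counts, beside 2496 and 2240.1 in the gastrula and 641 and 786 at stage 4tt. It had 586 and 776 at stage 5 and 702 and 741 at stage 7. Outside the gastrula this transcript stayed within 1.34-fold. The widest range was that of CTELG00000008826.1, with 0 and 4.09 at the 64-cell stage, followed by 422 and 482 at stage 4tt.

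Levels of the members at different stages were related across the 150 transcripts, which are not independent replicates and share libraries. The rank correlation of the gastrula mean with the stage 4tt mean was 0.941, with stage 5 0.875, with stage 7 0.833 and with the 64-cell stage 0.669. Since the score bounds the other stages by the gastrula value, part of this follows from the rule. The 2 libraries of a stage had rank correlations between 0.951 and 0.975 over the members.

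Among the 5 stages, the replicates of the members were closest in the gastrula, where the score takes the lower library. The median size of the log2 difference between the 2 libraries was 0.29 in the gastrula, 0.56 at the 64-cell stage, 0.36 for stage 4tt, 0.37 for stage 5 and 0.33 for stage 7. Gastrula replicate 1 was the higher for 96 members and replicate 2 for 54. The replicates differed more than 2-fold in the gastrula for 5 members. CTELG00000028780.1 differed most, with 322 and 1818 normalized counts, beside 115 and 75.6 in 64-cell embryos and 101 and 65.9 in stage 4tt animals. CTELG00000011069.1 came next, with 517 and 211 in the gastrula and 31.5 and 47.3 at stage 4tt. For both, the lower gastrula library still exceeded all others.

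The members belong to 147 gene identifiers, of which 129 have a single model and 18 have 2 or more. Reads that fit several models of a gene were divided among them by the pseudo-alignment, so levels of such models are uncertain. The 18 genes had 21 other models above the filter, and 12 of these (57.1%) also had their highest mean in the gastrula. Among all tested models of genes with 2 or more models, the gastrula held the highest mean of 24.4%. Summed over its models, 17 of the 18 genes were highest in the gastrula. Each sum includes a member chosen for its gastrula values, so this follows in part from the rule.

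The gene CTELG00000016067 had the largest summed gastrula value of the 18. Its member, CTELG00000016067.1, had 13945 and 13322 normalized counts in the gastrula, against 2056 and 2725 at the 64-cell stage. The other model, CTELG00000016067.2, had 235 and 118 in the gastrula and 642 and 465 at the 64-cell stage, and so moved the opposite way at a much lower level. The gene CTELG00000008487 had 4 models. Its member, CTELG00000008487.4, held 10% of the gene's gastrula value, with 1128 and 838. CTELG00000008487.2 and CTELG00000008487.3 had 3596 and 2998, and 4615 and 5542, in the gastrula and were also highest there. CTELG00000008487.1 was instead highest at stage 7, with 1331 and 1577. In 6 genes the member models held under 50% of the gene's gastrula value.

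Both models of CTELG00000003755 are members. CTELG00000003755.1 had 2867 and 3807 normalized counts in the gastrula, 42.5 and 791 in stage 4tt animals and 1.21 and 483 in stage 5 larvae. CTELG00000003755.2 had 8772 and 5535 in the gastrula, 1882 and 1196 at stage 4tt and, in stage 5 larvae, 1511 and 999.8. The replicates of each model thus disagreed, and in opposite directions. Their sum was 1925 and 1987 in stage 4tt animals and 1512 and 1483 in stage 5 larvae, where the replicates were close. The level of the gene was steadier than its division between the models. The gene whose sum was not highest in the gastrula, CTELG00000001350, is named after its values were seen. Its sum reached 1579 and 1796 in the 64-cell libraries, beside 1774 and 1291 in the gastrula, so that these overlap. CTELG00000001350.2, which is not a member, made up most of the 64-cell sum with 1503 and 1675, and had 0 and 61.8 in the gastrula. The members CTELG00000001350.1 and CTELG00000001350.3 held the rest of the gastrula sum.

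**Figure D5:**
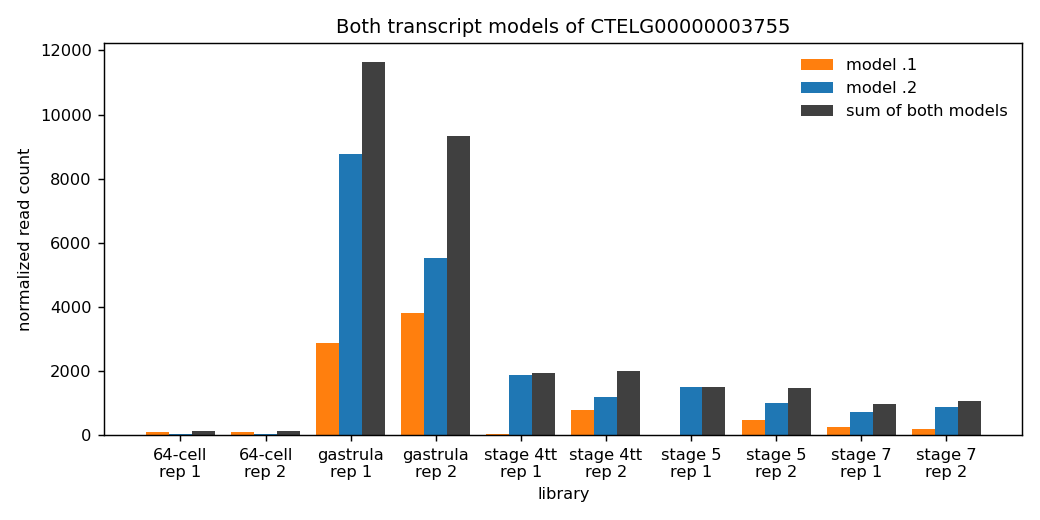
Normalized read counts of both models of the gene CTELG00000003755 and of their sum in the 10 libraries. At stages 4tt and 5 the model CTELG00000003755.1 is lower in replicate 1 than in replicate 2, CTELG00000003755.2 does the reverse, and the sums of the replicates are close (1925 and 1987 at stage 4tt).

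Some members carry consecutive gene numbers. Genome positions were not used here, so only the numbering is described. There were 3 such runs, which held 8 of the 147 genes. The longest has 4 genes, CTELG00000012624 to CTELG00000012627. Its first model, CTELG00000012624.1, reached 106 and 52.9 in 64-cell embryos, 1289.6 and 716 in the gastrula and 270 and 161 at stage 4tt. CTELG00000012625.1 had 41.9 and 48.3, then 736 and 459, and then 144 and 88.6 at the same stages. CTELG00000012626.1 had 55.1 and 56.3, then 829 and 609, and then 209.8 and 169.

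The last of the run, CTELG00000012627.1, had 85.7 and 89.4 at the 64-cell stage, 830.0 and 712 in the gastrula and 116 and 141 at stage 4tt. All 4 were higher in replicate 1 than in replicate 2 of the gastrula and had under 75 normalized counts in every stage 7 library. Near-identical copies could share reads, which was not examined. The next number, CTELG00000012628.1, did not follow them and was highest at stage 7, with 131 and 137.

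In the second run, CTELG00000005072.1 had 1203 and 1159.8 normalized counts in the gastrula and CTELG00000005073.1 had 1382 and 1132. At stage 7 the same transcripts had 2.10 and 6.36, and 42.1 and 57.9. The third run consists of CTELG00000013425.1 and CTELG00000013426.1, the fourth and the sixth by score. CTELG00000013426.1 had 31.7 and 16.7 at the 64-cell stage, 593 and 747 in the gastrula, 12.5 and 16.7 at stage 4tt and at most 3.96 later. The model numbered just before this run, CTELG00000013424.1, was abundant in every library, between 23199 and 52990.5.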

How the data were processed

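The authors removed adaptors with trimmomatic, pseudo-aligned reads of strand-specific mRNA libraries to filtered gene models with kallisto (v0.46.2), and used DESeq2 (v1.30.1) to normalize read counts across stages. Each deposited value, treated as a signal, is a normalized read count of a transcript model. The value of a single read varies within a library, so whole reads were not recovered, and limma was used in place of a test for counts.

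Members were found by the stated rule with pandas (v2.3.3) in Python (v3.11.15). Models above 2 in at least 2 libraries were kept, 35526 of 41221. Values were fitted as log2(value + 1), with 1 coefficient per stage, in R (v4.3.3) with limma (v3.58.1) and its mean-variance trend. Adjustment of p-values (Benjamini-Hochberg) ran over all models. The fit was tested on simulated data. The identifiers matched 0 of the 31977 RefSeq genes of Capca1.

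Members named were the 5 largest scores, the 3 highest gastrula means, the row on each side of the limit, the largest called changes without overlap and with the higher mean at least 10 (3 each way for stage 4tt against the 64-cell stage, 2 each way for stage 7 against stage 4tt), the 2 widest gastrula replicates, the 3 largest genes with several models and the 3 longest runs of gene numbers; others are marked. The members, comparisons and naming rule were chosen with earlier results of these data known. Alternatives were median-ratio scaling, pseudocounts of 0.1 and 5, no filter, a filter at 5, a replicate block, only the 2 stages compared, each library left out, 75 members, and sums over models.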

Additional observations from a re-analysis of the deposited data

How the results depend on the processing

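The share of members called stayed within 1.5 times the reported one in 80 of 90 cases with every library kept, and in 76 of 100 with a library left out. The transcripts named by rule for stage 4tt against the 64-cell stage and for stage 7 against stage 4tt were followed singly. With every library kept, their direction and call held in 62 of 63 fits. With a library left out, the calls lost are given above, and no fit changed a sign. Other named changes, including all at stage 5 against stage 4tt and at stage 7 against stage 5, were not followed singly. Falls from stage 4tt to stage 5 made up 4% of members with no filter and, in limma, 0% with only the 4 libraries of both stages, where 0% of all models tested were called too and 50 members were lower at an unadjusted p under 0.05. Rises from stage 5 to stage 7 made up 2% with a pseudocount of 0.1, 0.667% with no filter, 0% in limma with only both stages (13 at an unadjusted p under 0.05), 5.33% of the 75 members with the largest score and 5.44% of 147 genes on sums over models. Falls to stage 7 from stage 5 made up 0% in limma with only both stages (28 at an unadjusted p under 0.05), where 0% of all models tested were called in either direction, falls from the 64-cell stage to stage 4tt 1.33% with only both stages, and the single rise from stage 4tt to stage 7 was 1.33% of the 75. Where a count is 0 or a few, a change of 1 transcript passes the limit. The cause was not tested for the filter or the pseudocount.

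Leaving out 1 library leaves its stage with 1, whose variance is then taken from the other stages. In the comparisons among stages 4tt, 5 and 7, the share of all models tested that was called changed too. Falls from stage 4tt to stage 5 then ranged from 0% to 11.3%, falls from stage 5 to stage 7 from 2.67% to 14.7%, rises from stage 5 to stage 7 from 0% to 5.33%, falls from stage 4tt to stage 7 from 25.3% to 42.7%, rises from 0% to 0.667%, and falls from the 64-cell stage to stage 4tt from 0.667% to 2.67%. Rises from the 64-cell stage to stage 4tt stayed between 44.0% and 49.3%.

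The labels do not say that replicate numbers mark a shared brood, and the methods are unclear on this for *C. teleta*. The numbers were therefore not taken as pairs. Over all models tested, deviations of same-numbered libraries correlated between -0.00775 and 0.221 over the pairs of stages. Over the members the range was -0.0910 to 0.356. Both were highest between stage 4tt and stage 5. With the replicate number as a block, 48.0% of members were higher and 2.67% lower at stage 4tt than at the 64-cell stage, 12.7% were lower at stage 5 than at stage 4tt and 14.0% lower at stage 7 than at stage 5. Depth limits values under about 1 normalized count, where a transcript listed at 0 may still be present.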
